A study of Mus musculus with 4 samples.

Results

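The genes described here encode 10 RNA-binding and splicing proteins that mark the passage from neural progenitor to neuron: Elavl2, Elavl3, Elavl4, Rbfox1, Rbfox3, Nova1, Celf3, Celf4, Ptbp1 and Ptbp2. They were chosen by name, with earlier results of these data known. Each was read from the probe sets that the platform annotation assigns to its symbol alone. The 10 genes have 29 such probe sets, and each gene was represented by its brightest one, by the mean over 4 arrays. All 10 passed the signal minimum and are among the 12740 genes tested.

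Expression was measured on Affymetrix mouse arrays in cells sorted by GFP from embryonic mouse neural tube at E10.5. The Atoh1-GFP group (2 arrays) came from the Atoh1BAC-GFP line, in which GFP inserted in a bacterial artificial chromosome labels the Atoh1-derived cells that form dorsal interneuron 1 (dI1). The dNeurog1-GFP group (2 arrays) came from a line in which a Neurog1 enhancer places GFP in dorsal neural tube cells that form dorsal interneuron 2 (dI2). Both lines were on mixed B6SJLF1 and ICR backgrounds, and both neural tubes were cut from fore- to hindlimb level, freed into single cells with trypsin and sorted. The labels call the samples GFP-sorted cells, which are taken here to be the GFP-positive ones. How many embryos went into a sample is not given. The arrays of each group are labelled replicates 1 and 2 and the submitters called them biological replicates; whether equal numbers share a litter or day is not given.

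Proteins of this kind act on RNA after it is made. The neuronal Elavl proteins, also called Hu proteins, bind AU-rich and U-rich elements, stabilise their target messages and influence splicing, and they appear as neurons are born. Nova, Celf and Rbfox proteins regulate neuronal alternative exons. Ptbp1 represses many neuronal exons in progenitors and other non-neuronal cells, and in neurons its paralogue Ptbp2, which is a weaker repressor, takes its place. Expression arrays of this type report the amount of a transcript and not its splicing.

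Signals are given as MAS5 intensities after each array was scaled to a common trimmed mean of 500. This did not equalise the medians. In Atoh1-GFP cells the scaled median was 138.1 for replicate 1 but 75.97 for replicate 2. In dNeurog1-GFP cells it was 114.8 against 75.44. The deposited medians lay closer, at 69.07 against 75.97 and at 57.41 against 75.44. A middling probe set thus read higher in replicate 1, which limits any signals, sums or overlap compared across replicate numbers. As deposited, both replicate 1 arrays had a trimmed mean of 250 and both replicate 2 arrays one of 500, so the replicate number marks a processing batch that holds 1 array of each group. Each difference is the mean log2(signal + 32) of Atoh1-GFP less that of dNeurog1-GFP, and the added 32 makes changes of dim genes look smaller than they were. Tests used limma in 2 models, a plain one and one that takes the replicate number as a block, and differences within each replicate number are given too. Markers of dI1 and dI2 differed in the direction of the sort. The summed signal of 5 dI1 markers was 38820 and 37410 in Atoh1-GFP cells, against 3815 and 4683 in dNeurog1-GFP cells. That of 5 dI2 markers was 906.2 and 791 in Atoh1-GFP cells, against 7662 and 8940 in dNeurog1-GFP cells. Atoh1 itself gave 21410 and 19670 of the dI1 sum in Atoh1-GFP cells, and Neurog1 is in the dI2 sum. Both genes underlie the sort, so the sums are not independent of it. With the block, 5 of 5 dI1 markers were higher and 4 of 5 dI2 markers lower, Foxd3 not passing. In a sorted population, fewer cells of a type and less RNA per cell cannot be told apart.

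The comparison asked which genes distinguish the dI1 population from its dI2 neighbours. In the model with the block, Elavl2 and Elavl3 were higher and Ptbp1 was lower in Atoh1-GFP cells, by 1.54-fold, 1.7-fold and 1.63-fold, and the other 7 genes did not pass the test. Of all 12740 genes, 6.51% passed with the block, 2.78% higher and 3.73% lower in Atoh1-GFP cells, against 3 of these 10. Since the 10 were chosen with earlier results of these data known, the shares here are a description and no test of the set. Without the block 0 of the 10 passed (limma, adjusted p under 0.05), against 0.220% of all genes, 0.126% higher and 0.0942% lower in Atoh1-GFP cells. On signals as deposited and with a common 75th percentile, 1 of 13 and 7 of 18 genes called without the block were higher, against 16 of 28 here. At an unadjusted p under 0.05, 4 of the 10 passed without the block (Elavl2, Elavl3, Elavl4 and Ptbp1), against 8.59% of all genes, and 6 passed with it, against 22.5%. The median log2 difference of the 10 genes was 0.34 (0.32 within replicate 1 and 0.28 within replicate 2), against 0.01 over all genes tested. The 3 calls were lost when no signal minimum was set, where adjusted p with the block was 0.091 for Elavl2, 0.054 for Elavl3 and 0.061 for Ptbp1. They were also lost when the intensity trend of the variance was left out, where it was 0.17, 0.13 and 0.14.

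**Figure D1:**
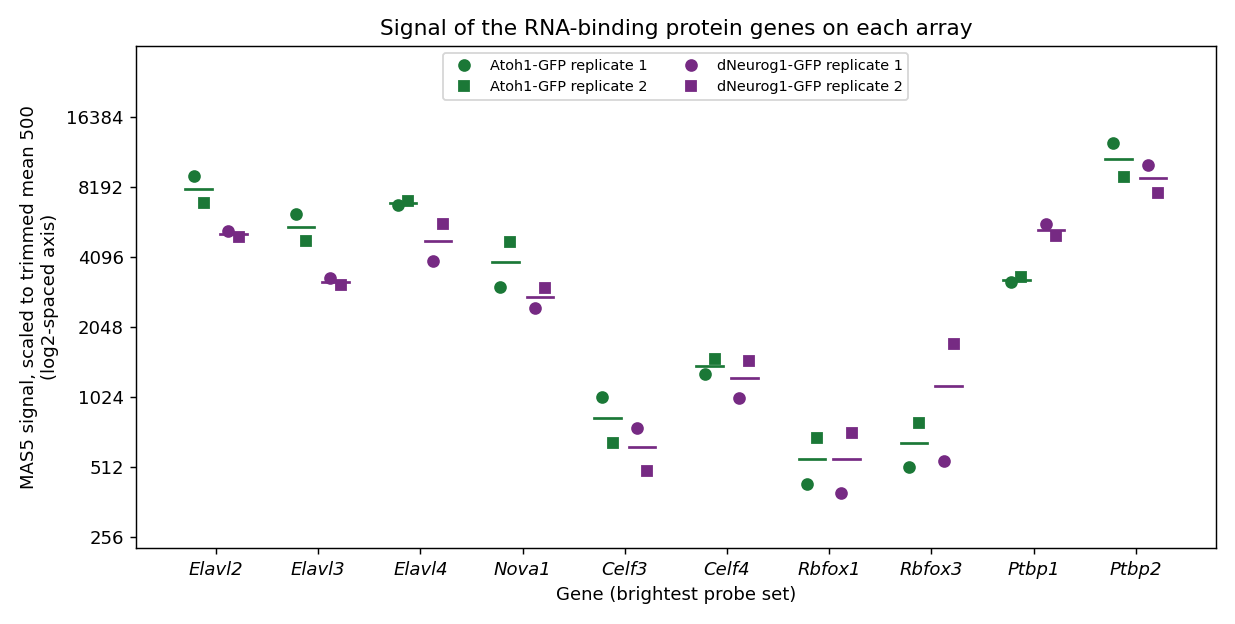
Scaled MAS5 signal (vertical axis, log2-spaced) of the brightest probe set of each gene on the 2 Atoh1-GFP arrays (green, left) and the 2 dNeurog1-GFP arrays (purple, right). Circles are replicate 1, squares replicate 2, and bars the group means. Both Atoh1-GFP points lie above both dNeurog1-GFP points for Elavl2, Elavl3, Elavl4 and Nova1 and below them for Ptbp1.

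The groups did not overlap for 5 of the 10 genes: 4 lay higher in Atoh1-GFP cells and 1 lay lower. Over all genes tested, 34.7% did not overlap, 15.9% higher and 18.8% lower. The sign was the same within both replicate numbers for 9 of the 10 genes, 7 with higher and 2 with lower values in Atoh1-GFP cells, and Rbfox1 went opposite ways. Of all genes, 67.0% had the same sign in both.

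The start regions of the 3 genes that passed are shown because the factors that define the populations, Atoh1 and Neurog1, are basic helix-loop-helix proteins, which bind E-boxes of the form CANNTG. The sequences are RefSeq windows on GRCm38.p6 from 250 bases before to 50 after an annotated transcript start, read 5′ to 3′ on the strand of the gene, with every CANNTG in capitals. Elavl2 has 6 such windows, and the one nearest the annotated start of the gene is given.
Elavl3, chr9:22051974-22052273, minus strand: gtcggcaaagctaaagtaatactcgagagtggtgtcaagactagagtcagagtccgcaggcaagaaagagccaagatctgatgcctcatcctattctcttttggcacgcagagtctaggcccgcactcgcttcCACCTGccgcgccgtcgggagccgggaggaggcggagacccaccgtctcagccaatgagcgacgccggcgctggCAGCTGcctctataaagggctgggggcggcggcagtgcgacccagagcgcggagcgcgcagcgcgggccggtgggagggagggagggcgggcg
Ptbp1, chr10:79854182-79854481, plus strand: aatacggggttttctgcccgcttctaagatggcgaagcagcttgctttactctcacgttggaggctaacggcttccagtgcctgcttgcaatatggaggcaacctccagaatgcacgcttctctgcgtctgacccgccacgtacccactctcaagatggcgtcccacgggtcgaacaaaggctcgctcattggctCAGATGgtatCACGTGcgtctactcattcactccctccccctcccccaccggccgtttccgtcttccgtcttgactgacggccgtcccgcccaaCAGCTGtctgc
Elavl2, chr4:91399935-91400234, minus strand: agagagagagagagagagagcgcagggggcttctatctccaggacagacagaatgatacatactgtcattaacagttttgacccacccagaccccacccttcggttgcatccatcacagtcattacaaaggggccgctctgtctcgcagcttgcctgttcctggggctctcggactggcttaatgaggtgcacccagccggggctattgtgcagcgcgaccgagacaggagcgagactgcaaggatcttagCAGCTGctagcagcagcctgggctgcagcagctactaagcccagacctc

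Each of the 3 windows holds a CAGCTG, an E-box that reads the same on both strands. In Elavl3 it begins 43 bases before the start, and a CACCTG begins 117 bases before the start. In Ptbp1 it begins at base 40 after the start, and a CAGATG and a CACGTG begin 55 and 45 bases before the start. In Elavl2 it begins at base 2 after the start. RefSeq windows were matched for 9 of the 10 genes, and 7 of these hold CAGCTG in at least 1 window, against 18.3% of 27025 genes, although genes with several overlapping windows have more sequence searched. Among genes with a single window, 3 of 5 members hold it (Elavl3, Nova1 and Ptbp1, not Rbfox3 or Ptbp2), against 16.1% of 22862 genes. CAGATG or its reverse complement CATCTG is in at least 1 window of 3 of the 9 (Elavl4, Celf3 and Ptbp1), against 19.2% of genes, and in 1 of the 5 with a single window, against 17.4%. Any CANNTG is in 8 of the 9, all but Ptbp2, against 75% of genes, and in 4 of the 5 members with a single window, against 72.4% of such genes. Both 6-letter motifs are forms of CANNTG. These matches are a description of letters in a window and were chosen for display with the calls known.

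All 3 neuronal Elavl genes had higher values in Atoh1-GFP cells on both arrays. Elavl3 (HuC), a marker of newborn and mature neurons, had 6288 and 4779 in Atoh1-GFP cells, against 3335 and 3090 in dNeurog1-GFP cells. Both Atoh1-GFP arrays lay above both dNeurog1-GFP arrays. That is a mean log2 difference of 0.77 (0.91 in replicate 1, 0.62 in replicate 2). Elavl3 passed with the block (limma adjusted p = 0.025, standard error 0.124) and not without it (adjusted p = 0.31, standard error 0.222). Its 2 dimmer probe sets gave the same picture. They differed by 0.61 and 0.68 on the log2 scale, with no overlap of the groups.

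Elavl2 (HuB), the member of the family that also acts in the germ line, had 9083 and 6994 in Atoh1-GFP cells, against 5293 and 5014 in dNeurog1-GFP cells. The groups did not overlap, and the Atoh1-GFP replicate 1 array was the highest. On the log2 scale the mean difference was 0.63 (0.78 in replicate 1, 0.48 in replicate 2), with adjusted p = 0.044 with the block (limma, standard error 0.128) and 0.40 without it (0.207). The second brightest of its 5 probe sets, with 6707 and 6711 in Atoh1-GFP cells against 5028 and 5182 in dNeurog1-GFP cells, had a smaller difference of 0.39. The remaining 3 differed more between arrays. They ranged from 0.26 to 1.07, and 1 of them had opposite signs within the replicate numbers (-0.28 and 0.83).

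Elavl4 (HuD), known for binding messages of axon growth, had 6843 and 7112 in Atoh1-GFP cells, against 3937 and 5676 in dNeurog1-GFP cells. The groups did not overlap, and the dNeurog1-GFP replicate 1 array stood below the other 3. Its difference of 0.56 on the log2 scale came from 0.79 in replicate 1 and 0.32 in replicate 2, and it did not pass in either model (limma adjusted p = 0.086 with the block, 0.57 without). With the block it passed on signals as deposited (adjusted p = 0.049) and with quantile normalization (0.0042). The other 2 probe sets of Elavl4 had differences of 0.69 and 0.73, again larger within replicate 1 (0.98 and 1.01) than within replicate 2 (0.41 and 0.44). Elavl2, Elavl3 and Elavl4 are close paralogues, and whether their probe sets read one another's transcripts was not tested. Elavl1 (HuR), the family member made in nearly all cells, had a log2 difference of -0.33 and did not pass (limma adjusted p = 0.17 with the block).

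**Figure D2:**
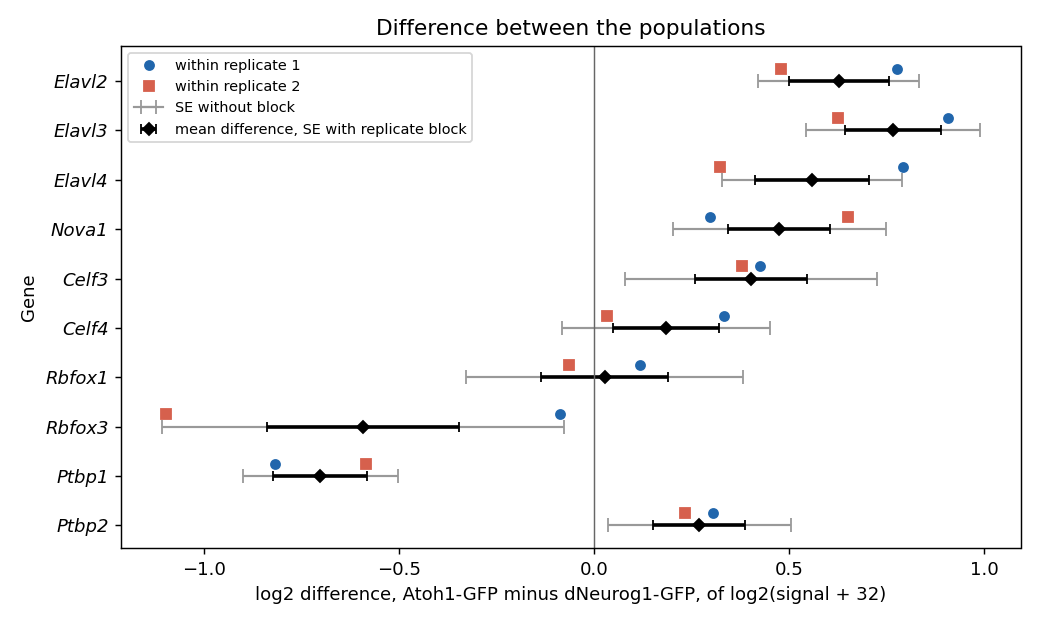
Log2 difference (horizontal axis, Atoh1-GFP minus dNeurog1-GFP) of each gene. Black diamonds are the mean difference, with its standard error in the model with the replicate block as a thick black bar and in the model without it as a thin grey bar, and circles and squares are the differences within replicates 1 and 2. Elavl2, Elavl3 and Ptbp1 have both within-replicate differences on the same side of 0 at 0.48 or more in size, and Rbfox3 spans -0.09 to -1.10.

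Ptbp1 was the gene that fell. It had 3194 and 3363 in Atoh1-GFP cells, against 5658 and 5061 in dNeurog1-GFP cells, so both Atoh1-GFP arrays were lower than both dNeurog1-GFP arrays. On the log2 scale the difference was -0.70 on average, -0.82 in replicate 1 and -0.58 in replicate 2. It passed with the block (limma adjusted p = 0.028, standard error 0.12) and not without it (adjusted p = 0.30, standard error 0.198). The other 2 probe sets of Ptbp1 did not show this. The one of second rank, with 640.1 and 391.3 in Atoh1-GFP cells against 665.6 and 325.1 in the dNeurog1-GFP group, differed by 0.10 on the log2 scale. The dimmest, between 103.9 and 223.8 on all 4 arrays, differed by 0.37. The call for Ptbp1 therefore rests on its brightest probe set alone.

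Ptbp2, the neuronal paralogue, had 12610 and 9070 in Atoh1-GFP cells, against 10200 and 7712 in dNeurog1-GFP cells. The groups overlapped, since both replicate 1 arrays were above both replicate 2 arrays. Within each replicate number the Atoh1-GFP value was the higher one, by log2 differences of 0.31 and 0.23. The mean of 0.27 did not pass (limma adjusted p = 0.25 with the block, 0.97 without), and the dimmer probe set had 0.48 (0.52 and 0.44 within replicates 1 and 2). Ptbp3, which is the family member known from blood cells, had 0.12 (adjusted p = 0.68 with the block).

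Within an array, the signals of the brightest Ptbp2 and Ptbp1 probe sets can be set against each other. The log2 signal of Ptbp2 minus that of Ptbp1 was 1.97 and 1.42 on the Atoh1-GFP arrays, against 0.85 and 0.60 on the dNeurog1-GFP arrays. Both Atoh1-GFP arrays lay above both dNeurog1-GFP arrays. The difference between the groups was 0.97, a 1.96-fold change of the ratio, with 1.12 within replicate 1 and 0.82 within replicate 2. The SD over the 2 arrays was 0.39 in Atoh1-GFP cells and 0.17 in dNeurog1-GFP cells. An exact permutation test of 2 arrays against 2 cannot give a two-sided p below 0.33, so no test was drawn from this ratio. With the second brightest Ptbp1 probe set in its place the difference was 0.17, and with the dimmest it was -0.10, so the 0.97 holds for the brightest Ptbp1 probe set only. The ratio shows unequal change of the 2 probe sets and does not compare their levels.

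Nova1, a regulator of exons in synaptic and inhibitory receptor genes, had 3055 and 4747 in Atoh1-GFP cells, against 2480 and 3012 in dNeurog1-GFP cells. The groups did not overlap, though the lowest Atoh1-GFP array was close to the highest dNeurog1-GFP array. The difference was 0.47 on the log2 scale (0.30 in replicate 1, 0.65 in replicate 2), and it did not pass (limma adjusted p = 0.097 with the block, 0.81 without), though it did with the block and quantile normalization (adjusted p = 0.0085). Its second probe set lay below the signal minimum. Nova2, the paralogue prominent in the developing brain, had 2000 and 2903 in Atoh1-GFP cells, against 943.7 and 1808 in dNeurog1-GFP cells. Nova2 was higher in Atoh1-GFP cells with the block, by 0.87 on the log2 scale (1.06 in replicate 1, 0.67 in replicate 2; limma adjusted p = 0.024 with the block, 0.57 without). Its difference was 0.41 without the dNeurog1-GFP replicate 1 array and 1.32 without the dNeurog1-GFP replicate 2 array.

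The Celf genes encode regulators of splicing and translation. Celf3, which has a single probe set, had 1024 and 649.3 in Atoh1-GFP cells, against 754.1 and 492.4 in dNeurog1-GFP cells. The groups overlapped, while the differences within the replicate numbers were alike at 0.43 and 0.38. The mean of 0.40 did not pass (limma adjusted p = 0.17 with the block). Celf4 had 1284 and 1496 in Atoh1-GFP cells, against 1012 and 1461 in dNeurog1-GFP cells, with 0.33 within replicate 1 and 0.03 within replicate 2. The groups overlapped, and the mean difference of 0.18 did not pass (limma adjusted p = 0.48 with the block). All 3 probe sets of Celf4 had the larger difference in replicate 1, with 0.34 to 0.36 for the 2 dimmer ones within replicate 1 and 0.08 to 0.16 within replicate 2. Of the paralogues, Celf5, also neuronal, had 1516 and 1057 in Atoh1-GFP cells, against 784.2 and 740.5 in dNeurog1-GFP cells. A difference of 0.71 on the log2 scale just missed the threshold (limma adjusted p = 0.055 with the block). The broadly expressed Celf1 and Celf2 had 0.06 and -0.09, and Celf6 lay below the signal minimum.

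Neither Rbfox1 nor Rbfox3 passed the test. Rbfox3 encodes NeuN, the nuclear antigen of mature neurons, and its brightest probe set had 511.2 and 794.9 in Atoh1-GFP cells, against 545.3 and 1737 in dNeurog1-GFP cells. The dNeurog1-GFP replicate 2 array stood apart, and the other 3 were within 511.2 to 794.9. The mean difference of -0.59 on the log2 scale joined -0.09 in replicate 1 and -1.10 in replicate 2, and it did not pass (limma adjusted p = 0.23 with the block, 0.97 without). Without the dNeurog1-GFP replicate 2 array it was 0.22. The other 2 probe sets had lower values in Atoh1-GFP cells in both replicates. One had -0.37 and -0.74, and the other, below the signal minimum, had -0.97 and -0.76.

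The summed signal of ventral neural tube markers was also highest on the dNeurog1-GFP replicate 2 array. For Olig2, Mnx1, Nkx2-2 and Foxa2 together it was 284.1 and 163.7 in Atoh1-GFP cells, against 320.4 and 1533 in dNeurog1-GFP cells. Of the 4 markers, 1 (Olig2) passed as lower in the model with the block, and 0 passed without it (limma). Olig2 had 3.824 and 7.443 in Atoh1-GFP cells, against 73.62 and 442.5 in dNeurog1-GFP cells. Its Atoh1-GFP values lay below the signal minimum of 63.45, and it was kept only through the dNeurog1-GFP arrays. Mnx1 had 85.13 and 43.58 in Atoh1-GFP cells, against 164.2 and 910.4 in dNeurog1-GFP cells. The list did not move as one. Foxa2 had a log2 difference of 0.69, higher in Atoh1-GFP cells, and Nkx2-2 had 0.27 within replicate 1 and -0.82 within replicate 2. The sum of 4 mesenchyme markers was also highest on the dNeurog1-GFP replicate 2 array. It was 3062 and 2466 in Atoh1-GFP cells, against 1380 and 4640 in dNeurog1-GFP cells. The part of these markers in the Rbfox3 values was not tested. Rbfox1, a splicing regulator of later neurons and muscle, had 432.6 and 682.6 in Atoh1-GFP cells, against 396.1 and 715.4 in dNeurog1-GFP cells. Both replicate 2 arrays were above both replicate 1 arrays. The difference was 0.03 (0.12 and -0.06 within replicates 1 and 2; limma adjusted p = 0.94 with the block), and its 3 other probe sets ranged from -0.05 to 0.51. Rbfox2, the broadly expressed paralogue, had 0.26 and did not pass (adjusted p = 0.37 with the block).

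**Figure D3:**
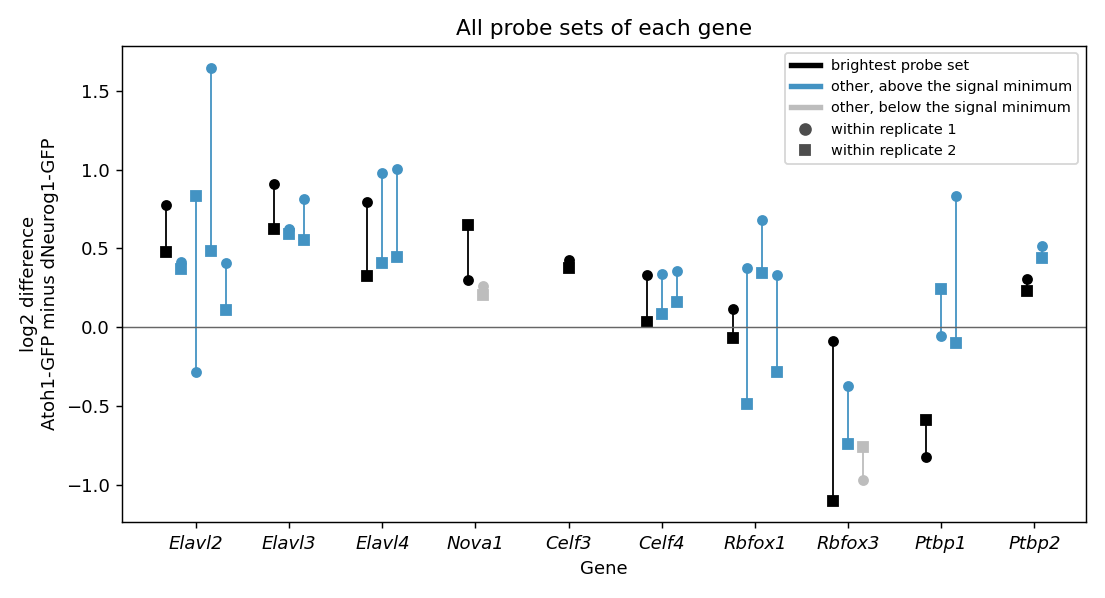
Log2 difference (vertical axis, Atoh1-GFP minus dNeurog1-GFP) within replicate 1 (circles) and replicate 2 (squares) for all 29 probe sets, joined by a line for each probe set. Black marks the brightest probe set of a gene, blue the others above the signal minimum and grey those below it. The 3 probe sets of Elavl3 and of Elavl4 are all above 0, whereas the 2 dimmer probe sets of Ptbp1 do not follow the brightest.

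Over all probe sets, 14 of the 19 dimmer ones had, within both replicate numbers, the sign of the mean difference of the brightest. The 5 exceptions were 1 probe set of Elavl2, 2 of Rbfox1 and 2 of Ptbp1.

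Markers of neurons, progenitors and other cells were read on the same arrays. The summed signal of 6 neuronal markers was 41460 and 45980 in Atoh1-GFP cells, against 22130 and 31280 in dNeurog1-GFP cells. With the block 3 of the 6 (Tubb3, Dcx and Map2) were higher and 3 did not pass. Of 8 progenitor markers 4 (Sox1, Sox3, Fabp7 and Pax6) were lower and 4 did not pass, and the summed signal of the 8 was 41470 and 32730 in Atoh1-GFP cells, against 59780 and 42570 in dNeurog1-GFP cells. Of the 4 that did not pass, Nes had a log2 difference in the other direction, 0.40. Sox2 had -0.11, Vim -0.05 and Hes5 -0.65. Of 5 measured cell cycle markers 3 (Mcm3, Cdc6 and Birc5) were lower and 2 did not pass. The 5 summed to 17600 and 18850 in Atoh1-GFP cells, against 30030 and 28320 in dNeurog1-GFP cells. All these calls came from the model with the block, where 2.78% of all genes passed as higher and 3.73% as lower. In the model without it, 0 of the neuronal, progenitor and cell cycle markers passed (limma). Embryonic globin transcripts (Hba-x, Hbb-y and Hbb-bh1) summed to 30370 and 31530 in Atoh1-GFP cells, against 7713 and 22810 in dNeurog1-GFP cells, and 0 of the 3 passed with the block, while all 3 had an unadjusted p under 0.05 (limma) and no overlap. Of the other lists, 3 heart muscle markers summed to 513.9 and 1575 in Atoh1-GFP cells, against 144.1 and 260.4 in dNeurog1-GFP cells. With the block 1 of the 3 was called higher, and without it 0 (limma). The called marker, Myl7, had 197.8 and 734.5 in Atoh1-GFP cells. In dNeurog1-GFP cells it had 59.32 and 51.16, below the signal minimum of 63.45. Endothelial markers summed to 851.5 and 331 in Atoh1-GFP cells, against 379 and 274.8 in dNeurog1-GFP cells, with 0 of 3 called. At an unadjusted p under 0.05 (limma), 2 of the 3 passed with the block, against 22.5% of all genes, and 0 without it, against 8.59%. Neural crest markers summed to 291.3 and 157 in Atoh1-GFP cells, against 311.3 and 410.6 in dNeurog1-GFP cells, with 0 of 2 called and 1 of 2 at an unadjusted p under 0.05 (limma) in both models. No marker named here fell below the signal minimum by its mean over all arrays, though some single arrays lay below it. The part of any of these lists in the values of the RNA-binding genes was not tested.

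Beyond the 10 genes, 33 other RNA-binding genes of neural cells were listed, 8 paralogues and 25 further regulators. Of these, 29 were tested: with the block 2 rose in Atoh1-GFP cells, 1 fell and 26 did not pass, against 2.78% higher and 3.73% lower over all genes. The median log2 difference of the 29 was 0.05. Besides Nova2, Srrm4, the activator of neuronal microexons, was higher. It had 2370 and 3776 in Atoh1-GFP cells, against 1595 and 1461 in dNeurog1-GFP cells. The difference was 0.96 on the log2 scale (0.56 in replicate 1, 1.35 in replicate 2; limma adjusted p = 0.044 with the block, 0.31 without), and without the Atoh1-GFP replicate 1 array it was 1.29 and without the Atoh1-GFP replicate 2 array 0.62. Khdrbs3, a splicing factor related to Sam68, was the gene that was lower. It had 1127 and 1312 in Atoh1-GFP cells, against 2157 and 2034 in dNeurog1-GFP cells, which is -0.77 on the log2 scale (limma adjusted p = 0.028 with the block, 0.32 without). For both genes the groups did not overlap. Without the block 0 of the 29 passed (limma). At an unadjusted p under 0.05 (limma), 5 of the 29 passed without the block, against 8.59% of all genes, and 8 with it, against 22.5%.

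**Figure D4:**
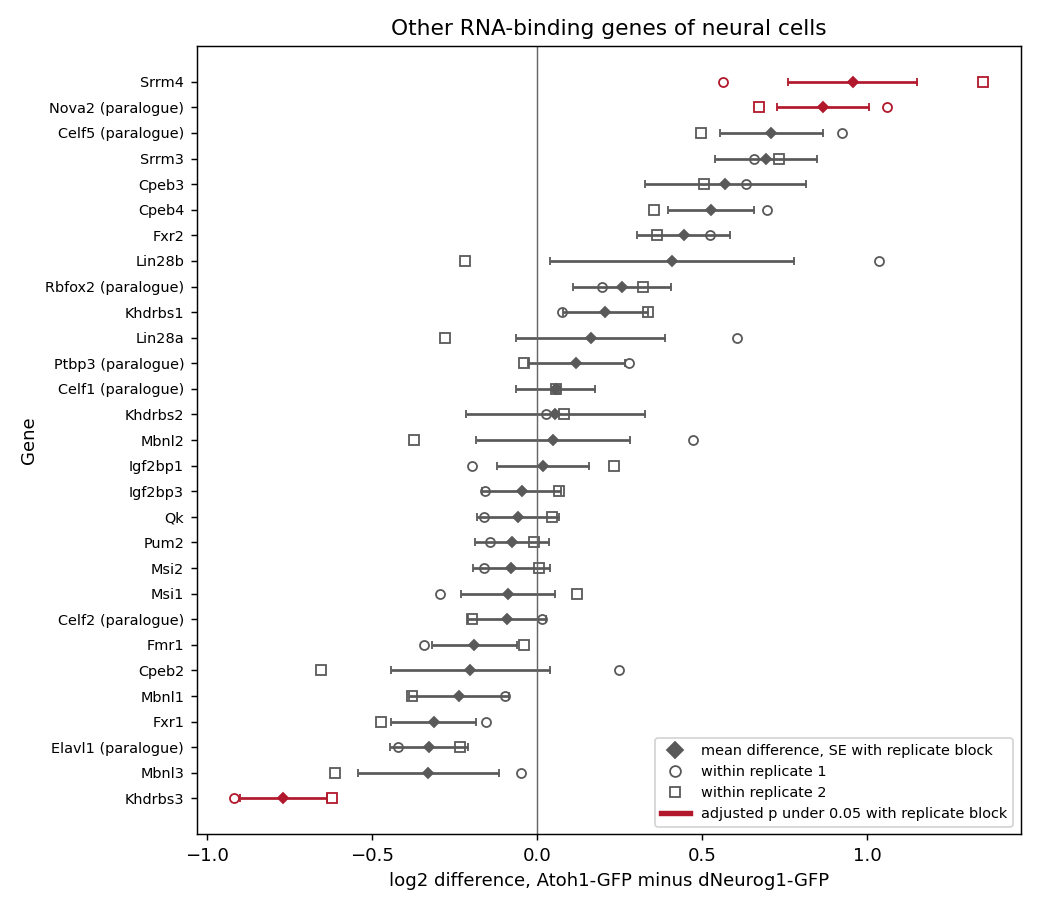
Log2 difference (horizontal axis, Atoh1-GFP minus dNeurog1-GFP) of the 29 tested genes among the other RNA-binding genes. Diamonds show the mean with its standard error in the model with the replicate block, open circles and squares the differences within replicates 1 and 2, and red the genes that passed with the block. Srrm4 and Nova2 lie highest, and Khdrbs3 lies lowest at -0.77.

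Transcripts known to be controlled by these proteins were examined next. Of 7, 0 passed with the block or without it (limma), and 3 had an unadjusted p under 0.05 with the block and 1 without, against 22.5% and 8.59% of all genes. Dlg4 and Gabbr1, whose neuronal exons Ptbp proteins repress, had log2 differences of 0.59 and 0.56 (limma adjusted p = 0.21 and 0.061 with the block). Flna, another Ptbp target, had 0.14. Among Nova targets, Agrn had 0.13 and Dab1 had -1.07 (adjusted p = 0.13 with the block), with -0.44 within replicate 1 and -1.69 within replicate 2. Gap43 and Mapt, messages bound by Elavl proteins, had opposite signs within the replicate numbers. Gap43 had 0.13 within replicate 1 and -1.36 within replicate 2, and Mapt 0.52 and -1.04. The Atoh1-GFP replicate 2 array was low for Gap43 (419.3, the other 3 between 1126 and 1492), and the dNeurog1-GFP replicate 2 array was high for Mapt (671.8, the other 3 between 199.9 and 309.1). The median of the 7 was 0.13.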

How the data were processed

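The authors deposited linear signal intensities, made with MAS5 per the submitters' processing notes. The version and settings of MAS5 were not found in the sources used. From these values, the 64 control probe sets were removed, each array was scaled to a trimmed mean of 500 (2% left out at each end), and probe sets with a mean signal at or above the 40th percentile (63.45) were kept, 27022 of 45037. Of the 45037, 34945 have 1 gene symbol, 932 several and 9160 none, and 34741 matched the RefSeq gene table with 0 symbols changed. For each gene the kept probe set of highest mean signal and single symbol was taken.

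Limma 3.58.1 in R 4.3.3 (lmFit, eBayes with trend) was run on log2(signal + 32) over 12740 genes, with Benjamini-Hochberg adjustment and a threshold of 0.05. The main model had no block. A second model, blocked on replicate number, is given beside it because the scaling targets differ by replicate number. The labels do not say that equal numbers share a day or litter. The deviations from the group means of same-numbered arrays correlated at 0.664 across genes, which are not independent. The models have 2 and 1 residual degrees of freedom, so p-values lean on the spread shared across genes, and the number of arrays limits the precision. The fit was tested on simulated data with independent noise and no effect of the replicate number, unlike these arrays, so it does not bear on the calls with the block.

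The 10 genes and all lists were chosen with earlier results of these data known. Named were all 10 genes, all paralogues and target transcripts, and other RNA-binding genes that passed in either model. Alternatives were other scalings, pseudocounts, signal minimums, tested features, no trend, and each array left out. Protein sequences of the paralogues were not compared here.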

Additional observations from a re-analysis of the deposited data

How the results depend on the processing

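Without the block, 0 of the 10 genes passed under each alternative tried, and the count over all genes, 28, was 13 on signals as deposited, 18 with a common 75th percentile, 14 without a signal minimum, 18 with a minimum at the 60th percentile, 1 with probe sets tested singly, 0 without the trend (limma) and 153 to 380 with an array left out. With the replicate block the counts were 3 of the 10 genes, 3 of the other RNA-binding genes, 0 of the target transcripts and 829 of all genes. The following combinations with the block were chosen after seeing the data. Quantile normalization gave 5, 6, 2 and 1726, and no signal minimum 0, 0, 0 and 361. No trend gave 0, 0, 0 and 23. Signals as deposited gave 4 of the 10 genes, 6 other RNA-binding genes and 1 target transcript, a common 75th percentile gave 5 other RNA-binding genes and 1 target transcript, and a pseudocount of 1 gave 5 other RNA-binding genes. Under these last 3 and quantile normalization, Celf5 joined the calls, with an adjusted p of 0.027 on signals as deposited. Elavl4 joined them on signals as deposited (0.049) and with quantile normalization (0.0042), and Nova1 with quantile normalization (0.0085). With an array left out, the model with the block has no residual degree of freedom, and without it 0 to 1 of the other RNA-binding genes and 0 to 1 of the target transcripts passed (Srrm4 and Gap43, without Atoh1-GFP replicate 1).

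Each of 20 alternatives read the brightest probe set of a gene. The block, the signal minimum, single testing and the trend cannot change its log2 difference. Only the scaling, the pseudocount and leaving out an array could. Under these, Elavl2, Elavl3, Elavl4, Nova1, Celf3, Ptbp1 and Ptbp2 kept their direction, but several moved widely when an array was left out. The 2 dimmer Ptbp1 probe sets, with differences of 0.10 and 0.37, did not enter. The ranges were 0.57 to 0.96 for Elavl3, -0.78 to -0.62 for Ptbp1, 0.44 to 0.81 for Elavl2, 0.30 to 0.82 for Elavl4, 0.16 to 0.79 for Nova1, 0.086 to 0.72 for Celf3 and 0.032 to 0.51 for Ptbp2. Quantile normalization turned Rbfox1 to -0.001 and Celf1 to -0.004, with and without the block. Leaving out an array turned Rbfox1 (-0.38 to 0.43), Rbfox3 (-1.40 to 0.22), Celf4 (-0.074 to 0.44), Celf2 (-0.29 to 0.11), Ptbp3 (-0.20 to 0.44), Agrn (-0.19 to 0.45), Gap43 (-1.49 to 0.27) and Mapt (-1.06 to 0.54). With an array left out, a lone array of a group is set against both arrays of the other group. A difference in level between the replicate numbers then enters the result. Agrn, which turned, had a log2 difference of 0.13 within both replicate numbers. Its signals were 2746 and 4313 in Atoh1-GFP cells, against 2506 and 3940 in dNeurog1-GFP cells. How much of each shift came from this was not tested. The Ptbp2 to Ptbp1 difference was between 0.70 and 1.25 with an array left out, a pseudocount of 1 or the dimmer Ptbp2 probe set, but 0.17 and -0.10 with the second brightest and the dimmest Ptbp1 probe sets, swaps chosen after seeing the data.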
